A study of Mus musculus with 2 samples.

Results

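The cells described here are day 6 differentiated mouse cells that still held transcripts of both Pou5f1 and Utf1. Pou5f1 encodes Oct4, a transcription factor required for pluripotency, and Utf1 encodes a chromatin protein of pluripotent cells and the germ line. A droplet barcode was kept as a cell with 15000 or more UMIs (unique molecular identifiers, each counted as 1 captured transcript), 500 or more genes and no more than 10% of its UMIs from mitochondrially encoded genes. A kept cell was a member when it had 5 or more UMIs of Pou5f1 and 1 or more of Utf1. Of 15803 kept cells, 205 were members: 24 of 6354 in the control library and 181 of 9449 in the knockout library. The members were thus chosen by their measured Pou5f1 and Utf1 counts. Every other gene comes from the same cells, so each comparison of members with the remaining cells is a description without a test.

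The study differentiated D3, a mouse embryonic stem cell line, toward cardiomyocytes and profiled single cells on day 6. One group carried the genotype WT (control) and the other a Zbtb16 knockout, and both went through the same differentiation to the same day. Zbtb16 encodes a zinc finger transcription repressor. Each group was 1 library, so no difference between control and knockout has a replicate check, and genotype, culture and library cannot be told apart. The sources used here do not give whether the knockout line was 1 clone. Neither an undifferentiated stem cell library nor an earlier day was analysed here, so persistence of the members since the start of differentiation was not measured.

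Mouse pluripotent cells are described along an axis from a naive state, as in the early inner cell mass, to a primed state, as in the epiblast shortly before gastrulation. Naive cells express Zfp42 (Rex1), Klf2, Esrrb and Nr0b1. Primed cells lower these genes and raise Fgf5, Otx2, Pou3f1 and the DNA methyltransferase Dnmt3b, while Pou5f1 stays on in both. Primordial germ cells, which arise from the epiblast, regain Dppa3 and Nanog and are specified by Prdm1, Prdm14 and Tfap2c, so several genes are shared between naive and germ cells.

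Kept control cells held 292541318 UMIs together, and kept knockout cells 343037265. Members were deeper than the remaining cells, with a median of 60214 UMIs in the control (from 31855 to 273331) and 44877 in the knockout (from 20876 to 174624), against 37242 and 30274 in the remaining cells. Their median mitochondrial share was 4.50% and 4.61%, against 4.22% and 5.03%. The targeted gene was low in the members of both libraries: Zbtb16 had 22 UMIs, or 10.5 CPM (counts per 1000000 UMIs), in the control members and 2 UMIs, or 0.216 CPM, in the knockout members. The remaining control cells held 22.3 CPM of Zbtb16 and the remaining knockout cells 1.02. The 2 libraries shared 16 kept barcodes, of which 2 were members, both knockout members.

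Members made up 0.378% of kept cells in the control (95% exact binomial interval 0.242 to 0.561) and 1.92% in the knockout (1.65 to 2.21). The knockout share was 5.07 times the control share, and the intervals did not overlap. These and all other intervals cover counting error only and leave out the spread between cultures, which 1 library a group does not show. The ratio lay between 4.68 and 7.18 under every other cut-off or exclusion tried, and the share in the knockout rose to 3.40% when 30000 UMIs were required, against 0.548% in the control. With each cell first thinned to 15000 UMIs, so that depth was equal, the shares were 0.236% and 1.33%, a ratio of 5.65.

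Few cells lay near the Pou5f1 cut-off, and more lay near that of Utf1. Pou5f1 ran from 6 UMIs through a median of 24 to 202 in the control members, and from 5 through 22 to 101 in the knockout members. Utf1 ran from 1 through 21 to 76 and from 1 through 11 to 62. Just inside the Pou5f1 cut-off, 1 control and 5 knockout members had 5 or 6 UMIs, and just outside it, 2 control and 3 knockout cells had 3 or 4 with Utf1 present. At the Utf1 cut-off, 3 control and 16 knockout members had 1 UMI. Cells with 5 or more Pou5f1 UMIs but 0 of Utf1 numbered 1 in the control and 23 in the knockout, and 22 of those 23 had Dppa5a. Pou5f1 was at 0 UMIs in 90.8% of kept control cells and 90.4% of kept knockout cells. The rule thus left out 23 knockout cells with Pou5f1 above its cut-off, and most other cells had no Pou5f1 UMI at all.

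The label was checked with Dppa5a, a KH-domain RNA-binding protein gene of pluripotent cells that the rule did not use. Dppa5a was present in 22 of 24 control members, with 0 to 1986 UMIs and a median of 197. It was present in 181 of 181 knockout members, with 1 to 523 UMIs and a median of 110. Summed over members it came to 3925 CPM in control and 2599.8 CPM in knockout members, against 1.42 and 4.63 CPM in the remaining cells. After thinning, 91.7% and 99.4% of members had a Dppa5a UMI, against 0.373% and 2.51% of endothelial-gated cells (3 or more Cdh5 UMIs with Pecam1), a cell type that should lack the gene. The median depths of those endothelial-gated cells were 55113 and 40568 UMIs before thinning. The marker that the rule did not use was thus present in all but 2 members. Dppa5a has near-identical gene copies, and the sources used here do not give how the counting treated reads that fit several copies, so its level is uncertain.

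Core pluripotency genes stood far above the remaining cells. Ratios are given as log2 of members over remaining cells, each CPM raised by 1, and a gene is called higher or lower at 2-fold when it reached 5 CPM in either set. Of the 11 core genes other than Pou5f1 and Utf1, which the rule used, 10 were higher and 0 lower in each library, with median log2 ratios of 5.30 (control) and 5.58 (knockout). Over all features at that level, 10.1% were higher and 20.3% lower in the control members and 10.6% and 17.1% in the knockout members, with medians of -0.20 and -0.09. Because whole transcriptomes of the same cells lie behind both, nothing is read from these shares. The same shares are the background of each later list count of members against remaining cells.

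Sox2, the partner of Oct4 at many enhancers, stood at 298 CPM in the control members and 269 in the knockout members. The remaining control cells held 2.21 CPM of Sox2 and the remaining knockout cells 16.4, where 12.4% of thinned cells had a Sox2 UMI against 1.61% in the control. Nanog, a homeobox factor of pluripotent and early germ cells, was at 107 and 111 CPM, against 0.568 and 1.05. It was not present in every member, with a UMI in 17 of the 24 control and 162 of the 181 knockout members. Gdf3, a Nodal-related ligand, was at 83.7 and 82.0 CPM, against 0.0895 and 0.198. Tdgf1, the co-receptor for Nodal and Gdf3, was at 101 and 196 CPM, and L1td1, an RNA-binding protein gene, at 209.7 and 381 CPM. The exception in the core list was Lin28a, a repressor of let-7 microRNA maturation, at 188 and 151 CPM in members against 114 and 115 in the remaining cells.

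**Figure D1:**
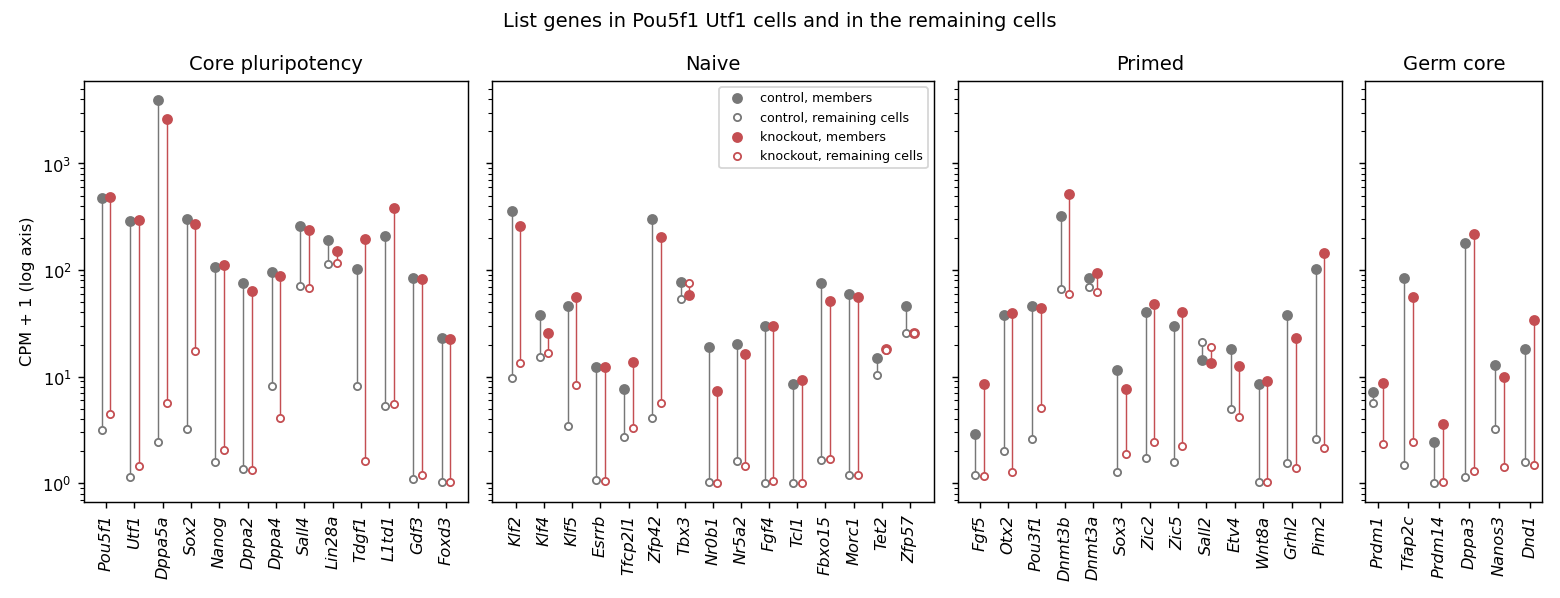
CPM plus 1 on a log axis for each gene of the core, naive, primed and germ core lists, in members (filled points) and remaining cells (open points) of the control (grey) and knockout (red) library. Most filled points sit well above their open points, while Lin28a, Tbx3, Dnmt3a, Sall2, Tet2 and Zfp57 lie close together.

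The 20 named genes with the highest ratio in both libraries included Pou5f1 and Utf1, as the rule itself fixed, and were otherwise led by Dppa5a, Dppa3 and Tdh. Tdh encodes threonine dehydrogenase, an enzyme on which mouse stem cells depend for one-carbon metabolism, and stood at 163 and 188 CPM against 0.847 and 1.08. Ooep, a maternal-effect oocyte gene, was at 112 and 60.6 CPM. Tex19.1, which restrains retrotransposons in the germ line, was at 109.9 and 71.0 CPM, and Morc1, another retrotransposon repressor of germ cells, at 58.5 and 54.7 CPM. Dnmt3l, the cofactor of de novo DNA methylation, was at 107 and 113 CPM against 1.63 and 1.27. The others of the 20 were Rbmxl2, Gdf3, Platr10, Nanog, Dppa2, Pla2g1b, Pim2, L1td1, Zfp42, Tcea3 and Chchd10.

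At the other end, genes of the differentiated cells were low in members. Among the 15 with the lowest ratio, Gata6 and Hand2, transcription factors of heart and endoderm progenitors, stood at 7.13 and 8.56 CPM in the control members against 398 and 248 in the remaining control cells. In the knockout members they stood at 14.8 and 11.5 CPM against 195 and 134. Acta2, smooth muscle actin, was at 27.6 and 89.2 CPM against 601 and 985.5 in the remaining cells. The others were Ttr, Spink1, Ctla2a, Hapln1, Rbp4, Prdm6, Nrp1, Bmp2, Tnni1, Pdgfra, Smoc2 and Robo2.

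By list, 0 of 12 measured cardiac progenitor genes were higher and 12 lower in the control, and 0 of 10 higher and 10 lower in the knockout. Of 12 mesenchymal genes, 12 were lower in each library, with median log2 ratios of -3.38 (control) and -2.69 (knockout). Of 13 cardiomyocyte genes, 11 were lower in the control, and 5 of 9 in the knockout, where 1 was higher. That 1 is Myh6, the alpha myosin heavy chain, with 11.6 CPM in members against 0.644 in the remaining knockout cells. Myh6 had 107 UMIs spread over 68 of 181 members. Endothelial genes were lower for 8 of 11 and 7 of 10, and the defining gene Cdh5 was at 0 UMIs in the control members and 8 UMIs in the knockout members.

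Adhesion genes followed the same split. Of 11 measured epithelial genes, 9 were higher and 2 lower in each library. Epcam, an epithelial adhesion molecule, was at 365 and 358 CPM against 17.0 and 20.3, and Cdh1 (E-cadherin) at 91.3 and 122 CPM against 1.87 and 4.13. The 2 lower genes were Krt8 and Krt18, keratins of simple epithelia, with Krt8 at 139 and 176 CPM against 612.5 and 1089. Vim (vimentin) was at 97.0 and 154 CPM against 1088 and 1515, and all 7 measured mesenchymal adhesion genes in the control and 7 of 8 in the knockout were lower.

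Naive genes were present but uneven. Of 15 naive genes measured, 12 were higher and 0 lower in the control members and 11 were higher and 0 lower in the knockout members, with median log2 ratios of 3.64 and 3.20. Zfp42 (Rex1), a naive zinc finger gene, ran from 0 through a median of 5 to 227 UMIs in the control members and from 0 through 3 to 100 in the knockout members. Its sum was 303 and 202 CPM, against 3.11 and 4.62. Klf2, a Krüppel-like factor of naive cells, was at 359.6 and 259.7 CPM, against 8.77 and 12.5. Esrrb, an orphan nuclear receptor of naive cells, was low at 11.4 and 11.3 CPM and was seen in 7 of 24 and 54 of 181 members. Nr0b1 (Dax1) was at 18.1 and 6.38 CPM, seen in 7 and 26 members. Most naive genes were thus above the remaining cells in the sum and at 0 in many single members.

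Primed genes were likewise above the remaining cells, with 10 of 12 higher in the control and 11 of 13 in the knockout and 0 lower in either, at medians of 3.65 and 3.11. Dnmt3b, the de novo DNA methyltransferase, ran from 1 through 19 to 89 UMIs in the control members and from 0 through 17 to 128 in the knockout members. Its sum was 321 and 512 CPM, against 65.0 and 59.1. Otx2, an epiblast and forebrain homeobox factor, was at 36.6 and 38.9 CPM, and Pou3f1 (Oct6) at 44.7 and 42.9 CPM. Fgf5, the textbook marker of the formative epiblast, was near its floor at 1.90 and 7.46 CPM, from 4 and 69 UMIs. Members therefore held primed genes without much Fgf5.

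Each cell was thinned to 15000 UMIs to ask how naive and primed transcripts were shared out. With a gene counted at 1 UMI, 75.0% of control members (interval 53.3 to 90.2) and 69.1% of knockout members (61.8 to 75.7) had 3 or more naive genes. The same share was 9.64% and 15.9% in the remaining cells and 21.6% and 35.4% in endothelial-gated cells, so part of the list is not specific to pluripotent cells. For 3 or more primed genes the shares were 75.0% (53.3 to 90.2) and 78.5% (71.7 to 84.2) in members, 15.6% and 12.1% in the remaining cells, and 20.5% and 28.4% in endothelial-gated cells. Without thinning the member shares were 91.7% and 94.5% for naive and 100% and 95.6% for primed genes.

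Counted together, 12 of 24 control and 95 of 181 knockout members passed for both lists, 6 and 30 for naive genes alone, 6 and 47 for primed genes alone, and 0 and 9 for neither. Over the 181 knockout members, the thinned UMIs of the naive and primed lists had a Spearman rho of -0.34 and a Pearson r of -0.28. Over the 24 control members these were -0.41 and -0.30. The cells of each value come from 1 library and were brought to 1 depth, and these are descriptions without a test.

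**Figure D2:**
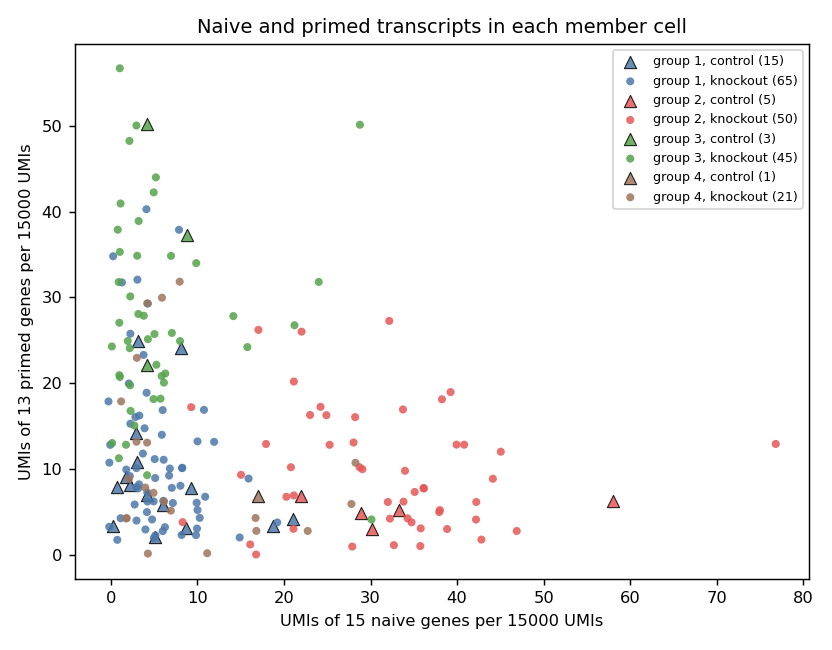
Each point is 1 member, with the UMIs of 15 naive genes on the horizontal axis and of 13 primed genes on the vertical axis after thinning to 15000 UMIs. Points are coloured by transcript group and control cells are triangles. Group 2 (red) lies to the right with a median of 32 naive UMIs, group 3 (green) lies high with a median of 26 primed UMIs, and few cells are high on both.

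Germ cell genes were detected in members, and how often together depended on depth. Of 5 measured germ core genes, 4 were higher in the control and 5 in the knockout, and 0 were lower. Dppa3 (Stella), which protects DNA methylation in the early embryo and marks naive cells and germ cells, ran from 0 through 11.5 to 126 UMIs in the control members and from 0 through 5 to 130 in the knockout members. It came to 178 and 216 CPM, against 0.145 and 0.297. Tfap2c, a transcription factor of germ cells and trophoblast, was at 83.7 and 54.95 CPM. Prdm1 (Blimp1), the main specifier of germ cell fate, was at only 6.18 and 7.79 CPM, and the remaining control cells held 4.63 CPM of it. Prdm14 had 3 UMIs in the control members and 24 in the knockout members.

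Without thinning, Prdm1, Tfap2c and Dppa3 were seen in the same cell in 3 of 24 control members (12.5%, interval 2.66 to 32.4) and 16 of 181 knockout members (8.84%, 5.14 to 14.0). All 6 germ core genes were seen together in 0 control and 3 knockout members. After thinning, 3 or more germ core genes were seen in 1 control member (4.17%, interval 0.105 to 21.1) and 34 knockout members (18.8%, 13.4 to 25.2). These intervals overlap. Without thinning, when the control members were the deeper, the shares were 58.3% and 44.2%. After thinning the share was 0.0316% and 0.0216% in the remaining cells and 0 of 268 and 0 of 398 in endothelial-gated cells. Of those 34 knockout members, 30 also passed for naive genes, and across the 181 knockout members naive and germ core UMIs had a Spearman rho of 0.48 and a Pearson r of 0.42. Over the 24 control members rho was -0.07 and r was 0.05.

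Of the later germ cell genes, Sycp3, a synaptonemal complex protein gene, was the most abundant at 86.6 and 80.3 CPM. Ddx4 (Vasa) stood at 5.71 and 12.9 CPM and Dazl at 5.71 and 5.30 CPM, and either was seen in 12 of 24 and 83 of 181 members. Nanos2, of male germ cells, was at 0 UMIs in both. Genes of the 2-cell embryo did not reach 5 CPM, and the 3 UMIs of Zscan4c and the 8 of Zscan4d in control members each came from 1 cell.

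Cell cycle phase, called by scoring S and G2/M genes at 15000 UMIs in all kept cells, placed few members in G1. This was 1 of 24 control members (4.17%, interval 0.105 to 21.1) and 2 of 181 knockout members (1.10%, interval 0.134 to 3.93), against 28.7% and 27.8% of the remaining cells and 9.70% and 12.1% of endothelial-gated cells. S phase took 33.3% of control members (15.6 to 55.3) and 44.2% of knockout members (36.8 to 51.8), against 24.01% and 26.5% of the remaining cells. G2/M took 62.5% and 54.7%, against 47.3% and 45.7%. In endothelial-gated cells S phase took 31.7% and 31.2% and G2/M 58.6% and 56.8%, a share above that of the knockout members.

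Phase genes themselves were shifted by less than 2-fold in the median. Their median log2 ratios in control and knockout were 0.12 and 0.52 for S genes and 0.14 and 0.22 for G2/M genes. Over all features the medians were -0.20 and -0.09. Of 43 S genes, 3 were higher in the control members and 7 in the knockout members, and of 54 G2/M genes, 2 and 3, with 0 lower. Over all features 10.1% and 10.6% were higher and 20.3% and 17.1% lower. Cyclins differed more. Ccne1 (cyclin E1), which drives entry into S phase, was at 188 and 192 CPM against 54.4 and 40.2 in the remaining cells, and Ccnd1 (cyclin D1) at 137 and 178 CPM against 57.95 and 61.8. Ccnd2 (cyclin D2) was at 33.8 and 38.2 CPM against 233 and 197. Cdkn1c (p57), an imprinted inhibitor of cyclin-dependent kinases, was at 202 and 186 CPM against 668 and 526.

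The members were not uniform. Clustering them alone gave 4 transcript groups, numbered by size, with 80, 55, 48 and 22 cells, and the genes that define them are descriptions. Group 1 held 15 control and 65 knockout members, group 2 held 5 and 50, group 3 held 3 and 45, and group 4 held 1 and 21. At a lower clustering resolution (0.3) 18 control and 108 knockout members formed the first group, and the smallest again had 1 and 21 cells. At a higher one (1.0) there were 8 groups, of which 1 again had 1 and 21 cells. Another held 14 control and 12 knockout members, and groups of 26, 12 and 9 knockout members held no control member. Group 1 alone was thus not shown to hold like cells in both libraries.

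Group 2 was led by Calcoco2, Nr5a2, Manba, Jam2 and Zfp42. It held 656 CPM of Zfp42, against 68.2, 43.5 and 118 in groups 1, 3 and 4, and 717 CPM of Klf2, against 100.2, 145 and 172. Both genes were seen in 55 of its 55 cells. Nanog stood at 223 CPM against 82.4, 64.7 and 55.9, Sox2 at 590.4 against 129, 245 and 149, and Esrrb at 33.9 against 4.24, 2.54 and 3.26. The germ-associated genes Dppa3 (451 CPM), Tfap2c (114 CPM), Nanos3 (21.4 CPM) and Prdm14 (6.57 CPM) were also highest there. Prdm1 was at 2.77 CPM, close to the 2.96 CPM of group 3. Fgf5 was at 0 and Pou3f1 at 3.46 CPM, and its naive genes summed to 2166 CPM, against 438, 376 and 526.

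Group 3 was led by Pou3f1, Foxd3, Pim2, Fst, Otx2 and Dnmt3b, so that 5 of its first 10 genes (with Zic2) came from the primed list. Dnmt3b stood at 996 CPM, against 330, 343 and 357 in groups 1, 2 and 4. Otx2 was at 84.6 CPM, against 23.3, 31.5 and 25.5, and Fgf5 at 14.8 CPM. Its primed genes summed to 1903 CPM, against 709.8, 614 and 739. Tfap2c, at 11.8 CPM, and Nanos3, at 2.11 CPM, were lower there than in groups 1 and 2.

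Group 1 was led by Alox15, Igfbp3, Tfap2a, Fgf8, Tmem185a and Lefty1. It held 42.4 CPM of T (Brachyury, the primitive streak gene), against 1.73 and 23.25 in groups 2 and 3 and a similar 40.2 in group 4. Cdx2, of posterior epiblast and trophoblast, was at 47.3 CPM there. It was at 5.19 and 11.4 CPM in groups 2 and 3 and at a similar 42.4 CPM in group 4. Within group 1 Cdx2 stood at 17.3 CPM in control and 60.1 CPM in knockout cells. Group 1 also held Fgf8, an FGF ligand of the streak, at 99.1 CPM against 0.692, 37.2 and 41.8. Its streak and mesendoderm genes summed to 216 CPM, against 19.4, 115 and 145. Prdm1 was highest there, at 12.2 CPM. Tfap2c was at 65.2 CPM, below the 114 CPM of group 2, and Zfp42 was at 68.2 CPM. Over the whole set T was seen in 2 of 24 control members and 54 of 181 knockout members.

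**Figure D3:**
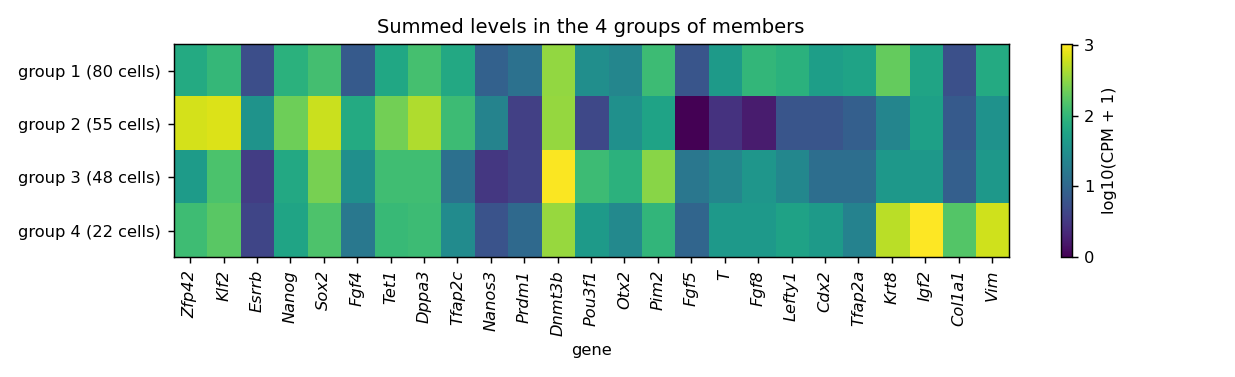
Level of 25 selected genes, as log10 of CPM plus 1, in the summed cells of each of the 4 groups of members. Naive genes such as Zfp42 and Klf2 are brightest in group 2, Dnmt3b, Pou3f1 and Pim2 in group 3, Fgf8 and Tfap2a in group 1, and Igf2, Col1a1 and Vim in group 4.

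Group 4 carried genes of another cell type together with the pluripotency genes. It was led by Nrp1, Postn, Tdo2, Lum, Col1a1 and Rbms3, and its 12 mesenchymal genes summed to 1542 CPM, against 108, 209.9 and 112 in groups 1, 2 and 3. Igf2 stood at 1029.5 CPM, against 55.8, 50.5 and 38.9, and Vim at 621 CPM, against 69.4, 33.5 and 39.7. Pou5f1 was at 316 CPM, against 523, 479 and 525. The cells of group 4 had a median of 80475 UMIs, against 41544, 45530 and 45060. Whether these barcodes held more than 1 cell was not tested, and no doublet caller was run, so counts and leading genes of the comparison between libraries are also given without group 4.

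**Figure D4:**
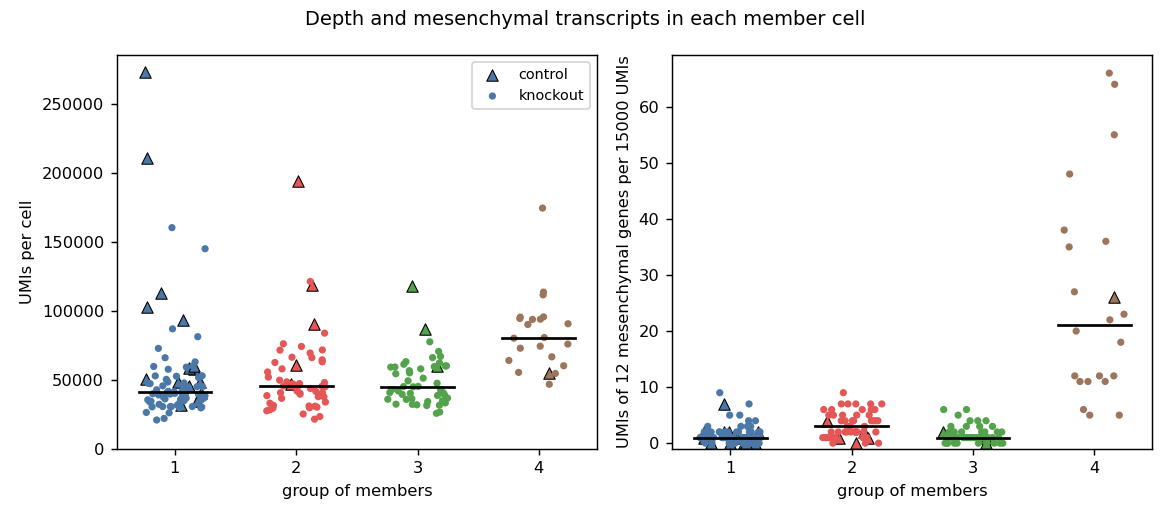
UMIs per member (left) and UMIs of 12 mesenchymal genes after thinning to 15000 UMIs (right), by group, with a line at the median. Group 4 has the highest median in both, 80475 UMIs per cell and 21 mesenchymal UMIs, and 3 control members (triangles) have 194548 UMIs or more.

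Free RNA in the droplets was read from barcodes with 10 to 100 UMIs. From the genes least seen in members relative to that profile, free RNA could make up no more than about 3.38% of the UMIs of control members and 9.44% of those of knockout members, and 2.56% and 2.65% without group 4. Dppa5a, for example, stood at 22.8 CPM in the control's free RNA and 126 CPM in the knockout's, far below the members.

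Between the libraries, few pluripotency genes of members were 2-fold apart in the sums, as was true of all features. Lists of this length do not separate such counts from the share over all features. As log2 of knockout over control CPM plus 1, Sox2 was -0.15 and Nanog 0.06, and Pou5f1 and Utf1, on which members of both libraries were selected, are left out. At 5 CPM, 0 of the 11 other core genes were 2-fold apart in either direction, with a median of -0.13, against 6.25% of all features higher and 1.99% lower and a median of 0.14. Tdgf1 was just under 2-fold, at 0.95. It was the 1 core gene called higher without group 4, at 1.10, and without the 3 control members with the most UMIs, at 1.18. Of 15 naive genes, 0 were higher and 1 was lower, Nr0b1 at -1.37, with a median of -0.28. Without the 5% deepest cells of each library Nr0b1 was at 0.03. Of 13 primed genes, 1 was higher, Fgf5 at 1.54 from 4 UMIs in the control, and 0 were lower. Of 5 germ core genes, 0 were apart, and 1 was higher without group 4. The naive and primed counts were the same without group 4. These sums weight the transcript groups differently in the libraries. In group 1 alone 5 of 12 measured naive genes were lower and 1 was higher, with a median of -0.77, and Morc1 was at -3.22, Klf2 at -2.15 and Zfp42 at -1.51. Of the core genes 3 were then higher and 0 lower. No share over all features at 5 CPM is given here for group 1 alone, so nothing is read from these counts. Over all groups without the 3 control members with the most UMIs, 1 naive gene was higher and 0 were lower. Morc1 was then at 0.60, Klf2 at 0.03 and Zfp42 at -0.03. Group 1 held the control members with 273331 and 210856 UMIs, and 1 of its control cells held 39 of the 123 control Morc1 UMIs. The group 1 ratios were not computed without these cells.

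Genes of the streak and of the signals that pattern it gave larger ratios, at low levels. Of 5 streak and mesendoderm genes measured at 5 CPM, 3 were 2-fold higher in knockout members and 0 lower. Over all features at that level 6.25% were higher and 1.99% lower. T was at 3.80 CPM in control members, from 8 UMIs in 2 cells, and at 33.1 CPM in knockout members, from 306 UMIs in 54 cells. Its log2 ratio was 2.83, 2.71 without group 4, 3.01 in group 1 alone and 0.61 in the remaining cells, and the per-cell ranges of 0 to 5 and 0 to 46 UMIs overlapped. Eomes, a T-box factor of mesendoderm, had a log2 ratio of 2.17, and Evx1, a homeobox gene of the posterior streak, one of 1.23. Fgf8 was not among the higher genes, and in group 1 it stood at 71.7 CPM in control and 111 CPM in knockout cells. Thinned UMIs of the streak and mesendoderm list ran from 0 to 37 per control member and from 0 to 25 per knockout member. The 37 were in 1 control cell of group 1, where 8 of 15 control and 17 of 65 knockout cells had 0. How many control Fgf8 UMIs lay in that cell is not given here, so the control level of Fgf8 may rest on few cells. Lefty1, a secreted Nodal inhibitor, went from 18.5 to 52.6 CPM, but 27 of its 39 control UMIs lay in 1 cell. Of 10 FGF pathway genes, 2 were higher and 0 lower, against the same shares of all features. These were Fgf5 and Dusp6. Dusp6, an ERK phosphatase and feedback target of FGF, went from 13.3 to 43.7 CPM.

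Of all features with 50 CPM in the members of either library, 159 of 3350 were 2-fold higher in the knockout members (4.75%) and 21 lower (0.627%). In the remaining cells these were 159 of 3726 (4.27%) and 69 (1.85%). The 3 deepest control members held 32.3% of the control members' UMIs, and without them 100 genes were higher and 20 lower. Without group 4 the counts were 133 and 22. Of the members, groups 1, 2 and 3 held 15, 5 and 3 of the control's and 65, 50 and 45 of the knockout's, and the sums of the libraries therefore weight the groups differently. In group 1 alone, which held the control members with 273331 and 210856 UMIs, 252 were higher and 52 lower.

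Growth and imprinted genes were among the largest ratios. Igf2, a growth factor expressed from the paternal allele, was at 28.1 CPM in the control members and 250.1 CPM in the knockout members, a log2 ratio of 3.11. Per cell it ran from 0 through 1 to 17 UMIs in the control and from 0 through 2 to 187 in the knockout, so that the ranges overlapped and the high values were in a few knockout cells. Without group 4 its log2 ratio was 1.46, and in the remaining cells it was 2.08, from 567 to 2393 CPM. The free RNA profile held Igf2 at 1578.5 (control) and 2756 CPM (knockout). At the largest free RNA shares given above, free RNA could supply 53.4 and 260.01 CPM of Igf2 in members, and 40.5 and 73.1 CPM without group 4, where members held 20.5 and 58.1. Each of these limits is above the level measured in the same set. Igf2 was itself among the genes from which the limits were taken, so this outcome was largely fixed in advance. In these sums Igf2 still cannot be told apart from free RNA, and the comparison does not decide it. The knockout cells of group 4 held 1051.7 CPM of Igf2, above the 260.01 CPM limit of all knockout members. No limit was computed for group 4 by itself. Igf2r, its clearance receptor, was at 19.02 and 147 CPM, a log2 ratio of 2.89, of 2.11 without group 4 and of 1.71 in the remaining cells. Without group 4 it stood at 16.6 and 75.1 CPM, of which free RNA could supply 7.52 and 21.3. Ahnak, a giant scaffold protein gene, had a log2 ratio of 2.79 over all members and of 1.25 without group 4. It stood at 16.2 CPM in control and 117 CPM in knockout members, of which free RNA could supply 5.21 and 64.1. Without group 4 it stood at 10.7 and 26.9 CPM, of which free RNA could supply 3.95 and 18.0.

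Linker histone genes were higher in knockout members with and without group 4. Hist1h1e, a replication-dependent H1 gene, was at 29.0 CPM in control members and 203 in knockout members, with 0 through 1.5 to 12 UMIs per cell in the control and 0 through 8 to 67 in the knockout. Its log2 ratio was 2.77, 2.69 without group 4 and 2.78 in group 1 alone, and 1.94 in the remaining cells. Hist1h1b went from 76.1 to 431 CPM and Hist1h1a from 10.5 to 67.9 CPM. The transferrin receptor Tfrc, which takes up iron, went from 19.5 to 100.2 CPM.

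Trh, the thyrotropin-releasing hormone gene, differed strongly between the groups. Trh was at 45.7 CPM in control members and 262 in knockout members, a log2 ratio of 2.49. It stood at 389.8 and 464 CPM in groups 2 and 3 and at 21.4 CPM in group 1, and in group 1 alone its log2 ratio was -1.15. Other genes among the highest were Nefl, a neurofilament gene (7.13 to 56.5 CPM), Arhgap29 and Lrpprc.

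Mest, an imprinted hydrolase gene expressed from the paternal allele, was the lowest, at 112 CPM in control members and 10.7 in knockout members, a log2 ratio of -3.27. It had a UMI in 23 of 24 control members and 26 of 181 knockout members, and 1 knockout cell held 49 of the 99 knockout UMIs. Without group 4 the knockout members were at 5.50 CPM and the log2 ratio was -4.14. Per cell it ran from 0 through 5.5 to 57 UMIs in the control and from 0 through 0 to 49 in the knockout. In the remaining cells Mest was at 1631 and 98.4 CPM (log2 ratio -4.04), and in free RNA at 1585 and 102 CPM. At its largest share, free RNA could supply 53.6 and 9.58 CPM of Mest in members.

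Gpx4, the lipid peroxide reductase that guards against ferroptosis, was at 2140.2 CPM in control members and 934 in knockout members, with 11 through 71.5 to 892 and 1 through 34 to 192 UMIs per cell. The per-cell ranges overlapped, the log2 ratio was -1.19 (-1.12 without group 4, -2.09 in group 1 alone and -0.90, under 2-fold, without the 3 deepest control members), and in the remaining cells it was -0.23, from 468 to 399 CPM. Crabp1, a retinoic acid binding protein gene, was at -1.72, but 1 control cell held 67.1% of its control UMIs. The others of the 12 lowest were Coch, Fbxo2, Platr3, Avpi1, Gng3, Dusp9, Ppp1r14a, Nfkbia and Upp1. Without the 3 deepest control members Platr3 (-0.81), Avpi1 (-0.61), Nfkbia (-0.91) and Upp1 (-0.64) were also under 2-fold.

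**Figure D5:**
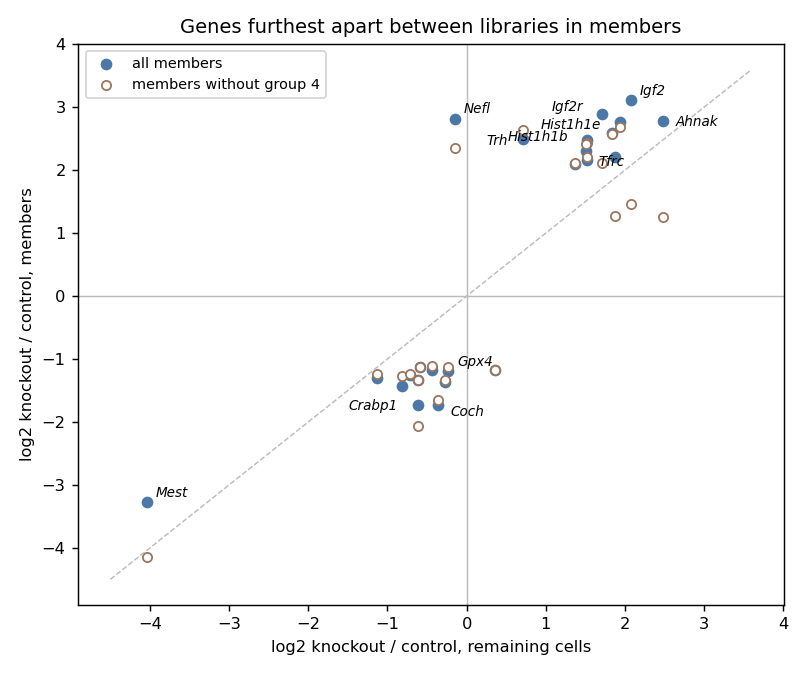
The 24 genes with the largest ratio in either direction, with the log2 ratio of knockout over control in the remaining cells on the horizontal axis and in members on the vertical axis, for all members (filled) and without group 4 (open). The dashed line marks equal ratios. Mest is lowest on both axes, Hist1h1e barely moves without group 4, and Igf2 and Ahnak drop.

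The RNA-binding proteins of the Igf2bp family, of which Igf2bp3 is named by the study, were expressed in members. Igf2bp1 was at 218 CPM in control members and 354 in knockout members, against 211 and 317 in the remaining cells. Igf2bp3 was at 73.7 and 104 CPM, against 184 and 215, and Igf2bp2 at 30.9 and 48.2 CPM, against 142 and 143. Over all members their log2 ratios between the libraries were 0.70 for Igf2bp1, 0.63 for Igf2bp2 and 0.49 for Igf2bp3, all under 2-fold, and Igf2bp3 reached 1.11 in group 1 alone.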

How the data were processed

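Single-cell libraries of D3 cells were prepared with an MGI DNBelab C kit, per the labels' protocols. The values the authors deposited are unfiltered matrices of UMI counts (whole numbers, not normalized) for each gene in each barcode, written by Cell Ranger 4 per the file headers. Cell Ranger, R 4.1.1 and the builds GRCm39 and mm39 are named in the submitters' processing notes.

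Counts were summed over cells and divided by their total (CPM), and ratios used a prior of 1 CPM. Intervals are 95% exact binomial intervals. Cells were thinned to 15000 UMIs without replacement. Members were clustered with scanpy 1.11.5 and leidenalg 0.10.2 (1500 variable genes, 15 components, 12 neighbours, resolution 0.5), which also called phases. No doublets were removed. Named genes were the 20 highest and 15 lowest in members with 50 CPM in both libraries, and the 12 with the largest knockout over control ratio in each direction, without predicted, ribosomal and mitochondrial genes. List genes, Zbtb16, Mest, Igf2 and the Igf2bp genes could also be named. Some genes that this rule names are not reported here. The rule for members, the 29 gene lists and the tests were chosen with earlier results of these data known. With 1 library a group no test was run. Of 200 genes simulated with a 4-fold change in the knockout over control members comparison, among 3154, 100% were recovered and 0% of unchanged genes were called. This simulation covers counting error only, without spread between cells. Its changed genes all lay well above 50 CPM in the pooled members, so their recovery at 2-fold was nearly fixed in advance. Alternatives included edgeR 4.0.16 TMM scaling, other cut-offs and no thinning. The following 3 alternatives were chosen after seeing the data: leaving out group 4, group 1 alone, and leaving out the 3 deepest control members.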

Additional observations from a re-analysis of the deposited data

How the results depend on the processing

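No paired analysis was possible because control and knockout are single libraries without replicate numbers. The share of cells that are members moved to 3.40% in the knockout with 30000 UMIs required, to 2.54% with at most 5% mitochondrial UMIs, and to 0.236% in the control and 1.33% in the knockout with the rule applied after thinning. Without thinning, the shares of control and knockout members with 3 or more list genes were 91.7% and 94.5% for naive, 100% and 95.6% for primed and 58.3% and 44.2% for germ core genes. With 2 or more genes they were 91.7% and 86.2%, 95.8% and 92.8%, and 45.8% and 44.2%. Without the 5% deepest cells the control germ core share was 0.0% (0 of 18 members). Genes 2-fold higher and lower in knockout members numbered 102 and 44 without the 5% deepest cells, 990 and 408 with no filter on level, 25 and 5 at 200 CPM or more, and 252 and 52 in group 1 alone. Without the 3 control members with the most UMIs 100 genes were higher. Both TMM and median-of-ratios scaling gave 125 and 28, and lowered every gene's log2 ratio by a shift of -0.07 and -0.08. Among named genes 2-fold apart over all members, those that changed sign were Pdgfra, at -0.33 without the 5% deepest cells, -0.69 without group 4 and -0.33 in group 1 alone, Nr0b1, at 0.026 without the 5% deepest cells, and Trh, at -1.15 in group 1 alone. Over all 99 genes followed across settings, 40 changed sign in at least 1, and the other 37 of these were under 2-fold over all members. The cause was not tested, except that a looser or stricter filter changes how many genes can be called. The 24 control members limit every control value here, where 1 UMI equals 0.476 CPM.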

Other observations

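Glycolytic genes differed in both directions. Of 17 measured, 3 were 2-fold higher and 1 lower in the control members and 8 higher and 1 lower in the knockout members, with median log2 ratios of 0.54 and 0.82, against 10.1% and 10.6% of all features higher. Ldha, which turns pyruvate into lactate, stood at 789 and 1103.5 CPM against 418 and 319.7 in the remaining cells, and Pkm (pyruvate kinase) at 1138 and 1549 CPM against 723 and 602. The exception was the glucose transporter Slc2a1, at 143 and 261 CPM against 617 and 1626. Targets of p53 included Bax, a pro-apoptotic gene, at 604 and 567 CPM against 261 and 244, and Sesn2 at 40.9 and 43.5 CPM against 7.92 and 10.3; of 10 measured, 5 were higher and 0 lower in each library.

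Imprinted genes were low in members apart from a few. Of 14 measured in the control 12 were 2-fold lower and 0 higher, and of 15 in the knockout 13 were lower and 0 higher. Over all features 20.3% and 17.1% were lower. Peg3 stood at 182 and 441 CPM against 1485 and 2575, and Meg3, a maternally expressed long noncoding RNA, at 264 and 408 CPM against 1465 and 1590.2. Snrpn and Phlda2 were not 2-fold apart, with Snrpn at 181 and 241 CPM against 136 and 154. Ifitm1, an interferon-induced membrane protein gene of early germ cells, stood at 662 and 677 CPM against 188 and 186. The receptors Lifr and Il6st, through which the cytokine LIF sustains mouse stem cells in culture, were at 9.51 CPM each in the control members and at 21.2 and 18.1 CPM in the knockout members, against 19.75 and 51.9 in the remaining control cells and 50.2 and 63.4 in the remaining knockout cells.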
